A study of Mus musculus with 28 samples.

Results

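Fibroblast growth factors (FGFs) are secreted or intracellular signalling proteins, and the FGF receptors are the tyrosine kinases that the secreted ones bind together with heparan sulphate. A bound receptor dimerizes and passes the signal through adaptor proteins to the RAS-ERK cascade, phospholipase C gamma and PI3 kinase, and sprouty and spred proteins dampen it. In the cerebral cortex, FGF1 and FGF2 are made by neurons and glia, FGFR3 marks astrocytes, and FGF13 is a non-secreted family member that binds voltage-gated sodium channels. The genes described here are 10 members of the family, 7 ligands or ligand homologues (Fgf1, Fgf2, Fgf3, Fgf4, Fgf9, Fgf13 and Fgf15) and 3 receptors (Fgfr1, Fgfr2 and Fgfr3), out of 53342 gene identifiers in each deposited table. They were chosen by name and by measured values, the Ctrl IP and Input levels of Fgf4 and Fgf15, which had almost no counts in the Ctrl immunoprecipitated libraries but had counts in the Input libraries of the same mice. That contrast is therefore described and not tested for any member.

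The samples were cerebral cortex of mice with a conditional gene deletion in astrocytes (cKO) and of littermates (Ctrl). In cKO mice the targeted gene was loxP/loxP and mGFAP-Cre was present. Ctrl mice, littermates of the same sex, had loxP/loxP or loxP/+ alleles, and both were on C57BL/6J. Bulk RNA-Seq was done on whole cortex of 4 cKO and 4 Ctrl mice at postnatal day 24 (P24) and of another 4 and 4 at P17. Translating ribosome affinity purification (TRAP-Seq) was done at P24 on 3 cKO and 3 Ctrl mice in which EGFP fused to the ribosomal protein L10a was expressed in cells with mGFAP-Cre activity, and each mouse gave an Input library from the cleared lysate and an IP library from the ribosomes pulled down with anti-GFP. Tagged ribosomes need the Cre driver, so the Ctrl mice of the TRAP-Seq experiment must have carried it as well, although the genotype given for Ctrl mice does not list it. With the driver, loxP/loxP is the cKO genotype, so the alleles of these Ctrl mice are not known. By the genotypes given, the bulk groups differ in Cre as well as in the deletion, and the TRAP-Seq groups both carry Cre. The deletion and the tag both follow mGFAP-Cre, so they cover whichever cells that driver labels. Each library came from 1 mouse, and RNA was selected with oligo-dT in both protocols, by primer in the bulk and on beads in the TRAP-Seq experiment.

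The values below are counts of reads per gene, or CPM, the count scaled with TMM factors to a library of 1000000 counts within each table, so levels from different tables are set side by side without a test. Libraries held 12603888 to 14575306 counts in P24 bulk, 8855488 to 11454729 in P17 bulk and 18433087 to 27242445 in TRAP-Seq, and a floor of 3 counts came to 0.200 to 0.341 CPM in bulk and 0.106 to 0.166 CPM in TRAP-Seq libraries. Differences are log2 fold changes from edgeR's two-sided quasi-likelihood test, with their standard errors (SE), and an adjusted p under 0.05 (Benjamini-Hochberg over all genes tested) is called a change. All 10 astrocyte markers were higher in IP than in Input libraries of cKO mice, and 9 of 10 neuron markers were lower. Set side by side, the summed level of the 10 astrocyte markers was 1146 to 2372 CPM in Input and 4642 to 6084 CPM in bulk libraries.

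Among the ligands, the clearest genotype difference was in Fgf1 (ENSMUSG00000036585, chromosome 18 from 38838673 to 38929472 on the minus strand, GRCm38), which encodes acidic FGF, a ligand that can activate every FGF receptor. In P24 bulk cortex the Ctrl mice had 31.9, 28.3, 30.8 and 30.5 CPM of Fgf1 and the cKO mice had 24.4, 19.3, 22.0 and 19.7 CPM. Every cKO mouse lay under every Ctrl mouse. Fgf1 was thus lower in the cKO group, at a log2 fold change of −0.50 (SE 0.08, adjusted p = 0.00657 by edgeR's quasi-likelihood test). It was the only 1 of the 7 members tested in P24 bulk that changed, where 1.72% of all 22495 genes tested changed, 1.26% rising and 0.462% falling. Fgf3, Fgf4 and Fgf15 did not pass the filter on low counts in bulk or in IP. Of the 10 astrocyte markers, 3 rose in P24 bulk (Gfap, Aqp4 and Aldh1l1) and 3 fell (Slc1a2, Slc1a3 and S100b), with a summed level of 4642 to 5272 CPM in Ctrl and 5034 to 5186 CPM in cKO mice, and their part in the Fgf1 difference was not tested. Fgf1 lies inside the span of Arhgap26, which was not among the genes with counts here, so reads shared with it could not be checked.

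The IP libraries, which hold RNA on the tagged ribosomes, showed a larger difference in Fgf1. The Ctrl IP libraries had 189, 196 and 194 CPM and the cKO IP libraries 122, 90.3 and 123 CPM. The groups did not overlap, and cKO mice were lower by a log2 fold change of −0.76 (SE 0.12, adjusted p = 0.00171). Again Fgf1 was the only 1 of 7 members tested that changed, but 20.0% of the genes tested in IP libraries changed, 11.6% rising and 8.42% falling, so 1 of 7 is close to that background. Over the 10 astrocyte markers the summed level was 12999 to 17092 CPM in Ctrl and 12696 to 17215 CPM in cKO IP libraries, and of these markers 1 rose (Gfap) and 3 fell (Slc1a2, Slc1a3 and Gjb6). Here, as in bulk, fewer cells of a type and less RNA per cell cannot be told apart.

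At P17 the Fgf1 levels were 25.9, 28.9, 27.7 and 26.2 CPM in Ctrl and 22.6, 26.5, 20.4 and 19.8 CPM in cKO mice. The cKO mean was lower, but 1 cKO mouse lay within the Ctrl range, and the log2 fold change of −0.27 (SE 0.09) did not pass the test (adjusted p = 0.943). None of the 7 members tested changed at P17, where 0.0943% of all genes did, 0.0660% rising and 0.0283% falling. The difference at P24 minus that at P17 was −0.23 on the log2 scale (SE 0.12, adjusted p = 0.835), so the ages were not shown to differ, and 0 of 7 members had an age interaction while 0.0470% of all genes did (0.0342% higher and 0.0128% lower). With the replicate number as a block, which the P17 libraries support, 107 genes changed at P17 in place of 20. A block within each age gave 56 genes with an age interaction in place of 11, though the numbers did not pair the P24 libraries. No member was among either set (Fgf1 at P17, adjusted p = 0.225 by edgeR's test with the block).

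In the Input libraries Fgf1 had 20.7, 22.7 and 20.1 CPM in Ctrl and 14.6, 20.3 and 25.1 CPM in cKO libraries, and the log2 fold change was −0.09 (SE 0.21, adjusted p = 0.915). The cKO libraries spread to both sides of the Ctrl libraries. None of the 10 members, all of which passed the filter here, changed in Input, where 0.109% of all genes did, 0.0923% rising and 0.0168% falling. The genotype difference in IP minus that in Input was −0.68 (SE 0.25, adjusted p = 0.434) for Fgf1, and 0 of 7 members had such an interaction against 0.0582% of all genes (0.0388% higher and 0.0194% lower), Fgf4 and Fgf15 being left out because the choice of genes used these libraries, and Fgf3 because it passed the filter only through Input. The interaction passed in 1 of 19 alternatives, with adjusted p up to 0.744. That alternative left out Input replicate 1 of the cKO mice (−0.88, adjusted p = 0.0279 by edgeR's test). Replicate 1 had the lowest Fgf1 level and stood apart from the other cKO Input libraries, at 85.2 and 89.8 in chi-square per degree of freedom. The summed astrocyte markers were 1146 to 1391 CPM in Ctrl and 1935 to 2372 CPM in cKO Input libraries, without overlap, and their part in this comparison was not tested. Over all libraries Fgf1 stood highest in Ctrl IP, then cKO IP, then Ctrl bulk at P24 (30.4 ± 1.49 CPM) and P17 (27.2 ± 1.38 CPM), while P17 cKO (22.3 ± 3.01), P24 cKO (21.3 ± 2.38), Ctrl Input (21.2 ± 1.37) and cKO Input (20.0 ± 5.27 CPM) did not differ beyond their spread.

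**Figure D1:**
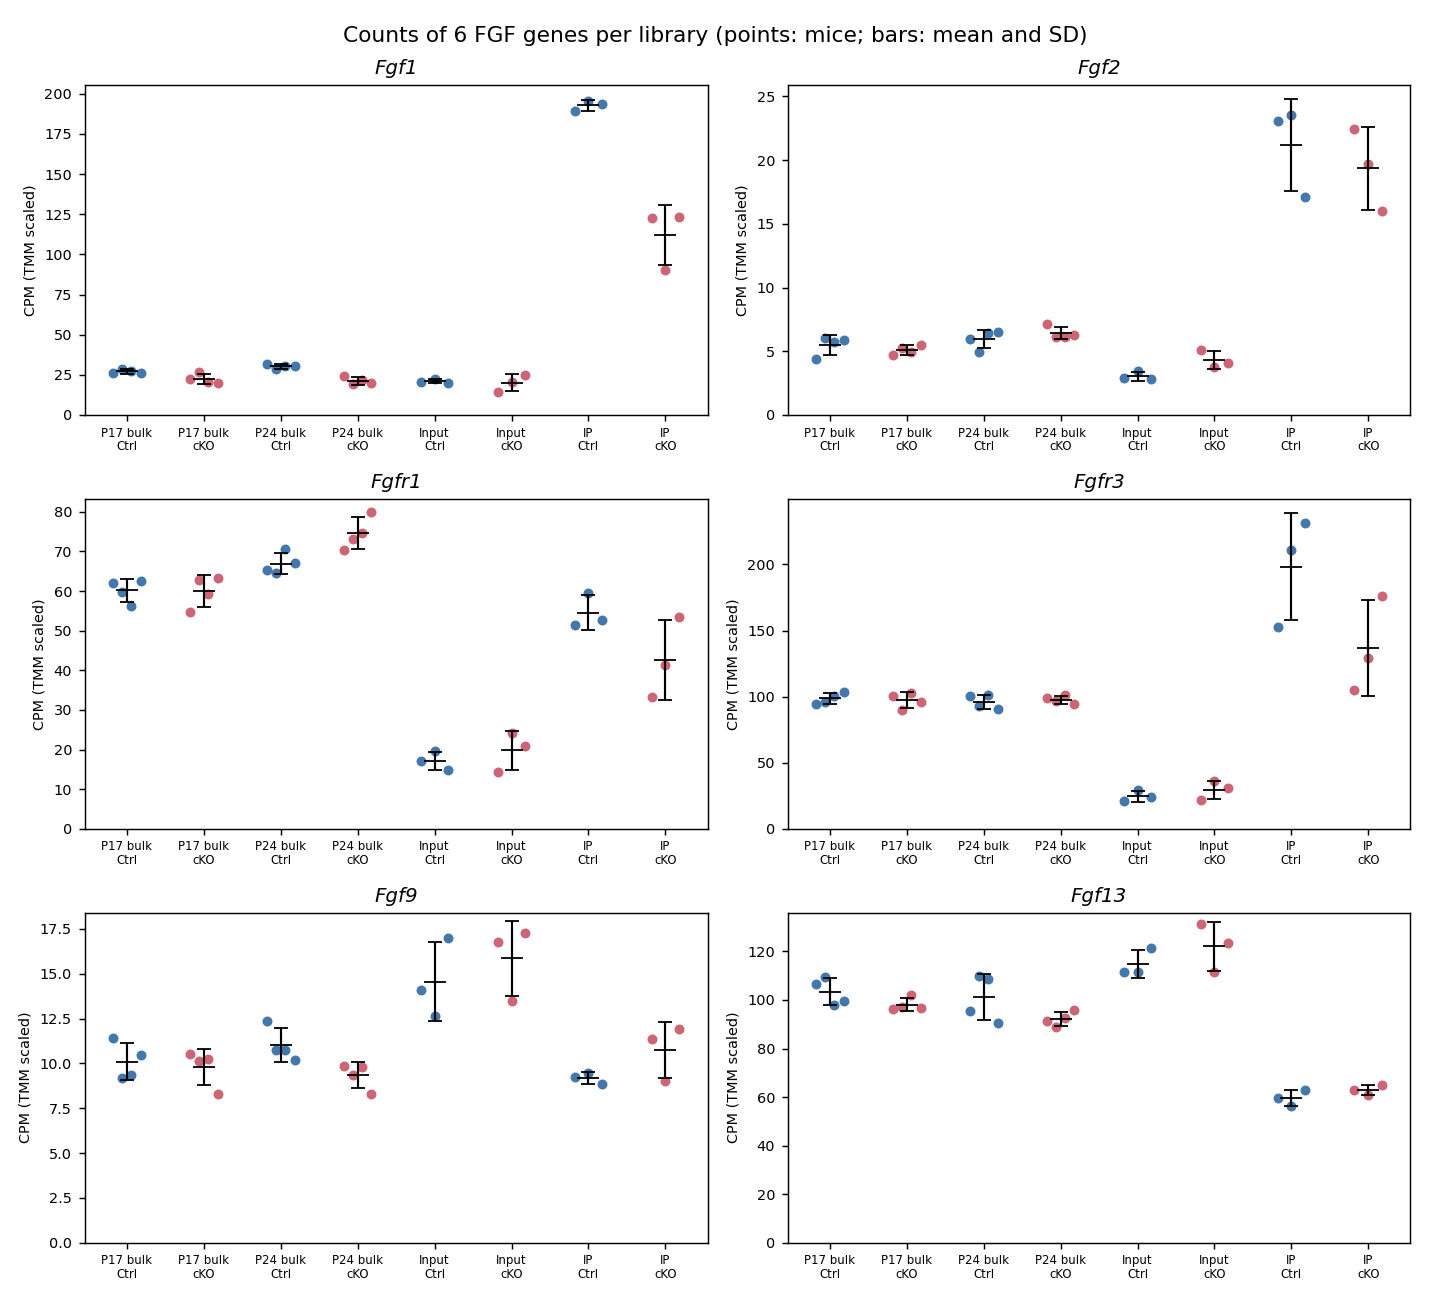
TMM-scaled CPM (y axis, from 0) of Fgf1, Fgf2, Fgfr1, Fgfr3, Fgf9 and Fgf13 in the 8 groups (x axis), with a point per mouse and bars for the mean and SD. Fgf1 is the gene whose cKO points lie under the Ctrl points both in P24 bulk and in IP, and Fgf1, Fgf2 and Fgfr3 stand highest in IP while Fgf13 stands lowest there.

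Fgf2 (chromosome 3 from 37348346 to 37410108, plus strand) encodes basic FGF, a mitogen for neural progenitors and glia. Its levels were 5.93, 4.93, 6.46 and 6.54 CPM in P24 Ctrl and 7.13, 6.15, 6.15 and 6.25 CPM in P24 cKO bulk, and 5.51 ± 0.777 and 5.10 ± 0.361 CPM at P17 (SD, n = 4 each). Neither age showed a difference that passed the test (log2 fold changes of 0.11 and −0.09). The IP libraries had 609, 614 and 433 counts (21.2 ± 3.59 CPM) in Ctrl and 522, 446 and 409 counts (19.4 ± 3.24 CPM) in cKO mice. The groups overlapped, and the log2 fold change was −0.11 (SE 0.15, adjusted p = 0.665). In Input the Ctrl libraries had 2.86, 3.43 and 2.82 CPM and the cKO libraries 5.08, 3.77 and 4.09 CPM. Those groups did not overlap, and the log2 fold change of 0.49 (SE 0.21) had an adjusted p of 0.812. The Fgf2 count is uncertain, because Nudt6, which runs over the 3' end of Fgf2 on the other strand, had 3205 counts in the IP libraries where Fgf2 had 3033, and Gm43439 overlaps Fgf2 on its own strand.

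Fgf9 (chromosome 14 from 58070547 to 58112720), a ligand released by neurons that acts on glia, had 12.4, 10.7, 10.7 and 10.2 CPM in P24 Ctrl and 9.87, 9.35, 9.81 and 8.32 CPM in P24 cKO bulk. All 4 cKO values lay under the Ctrl values, but the log2 fold change of −0.23 (SE 0.10) did not pass the test (adjusted p = 0.330). The other differences in Fgf9 were 0.25 in IP (adjusted p = 0.225), 0.10 in Input and −0.04 at P17. Fgf13 (X chromosome from 59062145 to 59568071) had higher levels, 101 ± 9.51 and 92.2 ± 2.83 CPM in P24 Ctrl and cKO bulk, 103 ± 5.48 and 98.1 ± 2.65 CPM at P17, 115 ± 5.80 and 122 ± 10.1 CPM in Input and 59.6 ± 3.34 and 62.9 ± 2.11 CPM in IP libraries. Its genotype differences ran from −0.13 to 0.10, and none passed the test. Of the 4 sodium channel genes listed as partners of FGF13, Scn8a was lower in cKO IP libraries (−0.35, adjusted p = 0.0494, and only in 6 of 14 alternative settings) and none changed in the other genotype comparisons.

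Of the receptors, Fgfr3 (chromosome 5 from 33721674 to 33737068, plus strand), an astrocyte receptor of the cortex, had 153, 211 and 231 CPM in Ctrl and 105, 129 and 176 CPM in cKO IP libraries. The cKO mean was lower, and 1 cKO library lay above the lowest Ctrl library. The log2 fold change of −0.51 (SE 0.19) did not pass the test (adjusted p = 0.0833), but 7 of 14 other settings gave an adjusted p under 0.05. The lowest, 0.00139 at −0.52, came from blocking on the replicate number. The numbers did not pair the IP libraries, whose same-numbered deviations correlated at only 0.036 to 0.116. In bulk the Fgfr3 levels were 96.3 ± 5.29 in Ctrl and 97.6 ± 2.86 CPM in cKO mice at P24 and 98.6 ± 4.27 and 97.2 ± 5.91 CPM at P17, with log2 fold changes of 0.02 (SE 0.05) and −0.01 (SE 0.06). The Input libraries had 20.8, 29.0 and 24.1 CPM in Ctrl and 21.9, 35.9 and 30.6 CPM in cKO mice (0.25, adjusted p = 0.817). The IP difference minus the Input difference was −0.76 for Fgfr3 (SE 0.32, adjusted p = 0.515).

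Fgfr1 (chromosome 8 from 25513654 to 25575718, plus strand), the receptor common to neurons and glia, had 65.3, 64.7, 70.5 and 67.1 CPM in P24 Ctrl and 70.4, 73.1, 74.7 and 80.0 CPM in P24 cKO bulk. The cKO mean was higher by 0.16 on the log2 scale (SE 0.05), with an adjusted p of 0.212, and 1 cKO mouse lay just under the highest Ctrl mouse. In the IP libraries the Ctrl levels were 51.4, 59.6 and 52.7 CPM and the cKO levels 33.2, 41.3 and 53.4 CPM, which is the opposite direction (−0.33, SE 0.15, adjusted p = 0.155). The third cKO library lay within the Ctrl range, and without it the difference in IP was −0.53 (adjusted p = 0.0195). With each of the 6 libraries left out in turn, the adjusted p ran from 0.0195 to 0.446. At P17 Fgfr1 had 60.2 ± 2.89 and 60.0 ± 3.98 CPM, and in Input 17.2 ± 2.31 and 19.8 ± 4.94 CPM. Gm16159, inside Fgfr1 on the other strand, had 690 counts in P24 bulk, where Fgfr1 had 7811, and 453 in IP, where Fgfr1 had 7329.

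**Figure D2:**
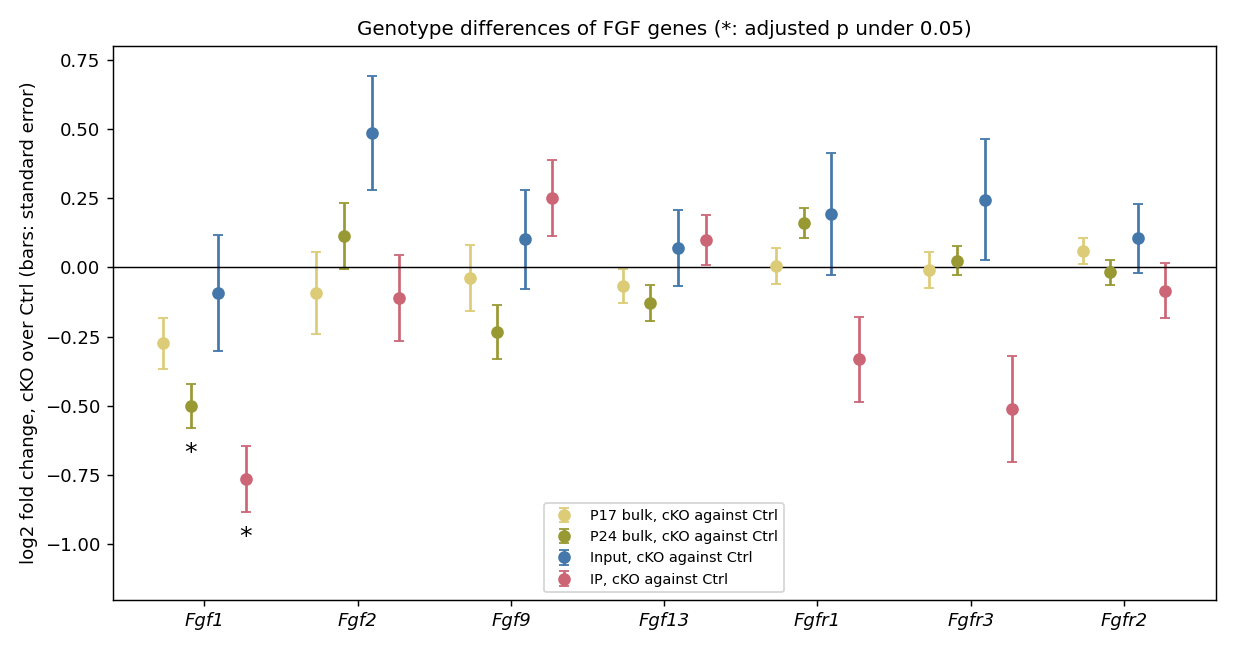
Log2 fold changes of cKO over Ctrl (y axis) for the 7 members tested in all 4 genotype comparisons (x axis), with bars for the SE and a colour for each comparison. The 2 values that passed the test, marked with a star, are Fgf1 in P24 bulk (−0.50) and in IP (−0.76).

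Fgfr2 (chromosome 7 from 130162451 to 133123350, minus strand) cannot be read as the level of the receptor here. Its annotated span is 2960900 bases long and holds 68 other genes, 33 on the plus and 35 on the minus strand, among them Gpr26, Htra1, Plekha1, Tacc2, Ate1 and Oat. Where some of those 68 genes overlap each other, only the highest count of each overlapping set was taken. Added up in this way, they came to 71.4% to 89.5% of the Fgfr2 count in every library. Pairs were also compared in which 1 gene's span lies inside another's and the inner gene had at least 50 counts in TRAP-Seq. On opposite strands the outer gene had at least the inner gene's count in 3961 of 4109 pairs (96.4%), and on the same strand in 3704 of 3709 (99.9%). No such share was worked out for genes lying apart, so the sharing of reads was not tested. In 1 pair going the other way, Ano1 had 0.301 CPM in cKO Input. Gm44930, inside it on the other strand, had 20.1 CPM. Fgfr2 as counted stood at 1261 ± 59.6 in Ctrl and 1242 ± 65.1 CPM in cKO P24 bulk, and no genotype comparison of it passed the test (−0.08 to 0.11). Gm26351 and Mir504, apart from each other inside Fgf13 on its own strand, had equal totals of 195 counts in P24 bulk. Arhgap26, which spans Fgf1, was not among the genes with counts here, so its overlap with Fgf1 could not be checked.

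Between fractions, Fgf1, Fgf2, Fgfr3 and Fgfr1 stood higher in IP than in Input, and Fgf9 and Fgf13 stood lower. Beside P24 bulk cortex, without a test, this did not hold for Fgfr1 and held for Fgf9 in Ctrl mice alone. Fgfr1 had means of 54.5 CPM in Ctrl IP and 42.6 CPM in cKO IP, under 66.9 and 74.6 CPM in bulk. Fgf9 had 10.8 CPM in cKO IP, above 9.34 CPM in cKO bulk. Its Ctrl IP mean of 9.18 CPM lay under the Ctrl bulk mice, at 10.2 to 12.4 CPM. In cKO mice, whose libraries did not serve to choose the genes, IP stood above Input for Fgf1 by 2.46 on the log2 scale (SE 0.24, adjusted p = 6.00e-05), for Fgf2 by 2.16 (SE 0.19), for Fgfr3 by 2.19 (SE 0.27), for Fgfr1 by 1.08 (SE 0.25) and for Fgfr2 as counted by 0.62 (SE 0.15). It stood below Input for Fgf13 by −0.97 (SE 0.14, adjusted p = 0.000399) and for Fgf9 by −0.57 (SE 0.17, adjusted p = 0.0202), the latter with 3 of 14 other settings missing the threshold. These tests did not use the pairing of IP and Input by mouse. With the mouse as a block, edgeR's test gave 2.50 for Fgf1 (adjusted p = 0.000115), −0.96 for Fgf13 (0.00286) and −0.56 for Fgf9 (0.0268). All 10 members were called different between the fractions, 5 higher and 5 lower, where 56.3% of all genes were, 27.8% higher and 28.5% lower. Fgf3, Fgf4 and Fgf15 are among the 5 lower ones and passed the filter only through the Input libraries, so their calls had to follow. In Ctrl mice the same fold changes, given without a test, were 3.14 for Fgf1, 2.76 for Fgf2, 2.97 for Fgfr3, 1.62 for Fgfr1, −0.99 for Fgf13 and −0.71 for Fgf9, and 71.0% of all genes were called there, 35.3% higher and 35.7% lower. The 10 astrocyte markers had a median IP over Input of 3.78 in Ctrl and 2.84 in cKO mice on the log2 scale, so they too stood farther from Input in Ctrl mice, and their part in these values was not tested.

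Fgf3, Fgf4 and Fgf15, which lie side by side on chromosome 7, had counts in the Input libraries and almost nowhere else. They encode secreted ligands known from the embryo, and FGF15 is in the adult a hormone of the gut that restrains bile acid synthesis. Fgf4 (144847367 to 144865243, plus strand) had 431, 319 and 340 counts in Ctrl and 1363, 462 and 546 in cKO Input libraries, 0 in all 3 Ctrl IP libraries, and 0, 0 and 1 in cKO IP libraries. Bulk cortex at both ages was as empty as IP: Fgf4 had 0, 2, 0 and 0 counts in Ctrl and 0, 1, 0 and 0 in cKO mice at P24, and 0, 1, 0 and 0 in Ctrl and 1, 1, 1 and 3 in cKO mice at P17. So the contrast between IP and Input in Fgf4 is matched by a contrast between bulk cortex and Input, 2 preparations of the same tissue.

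Fgf15 (144896531 to 144900953, plus strand) had 533, 397 and 426 counts in Ctrl and 1766, 600 and 706 in cKO Input libraries, against 2, 1 and 1 in Ctrl and 2, 1 and 2 in cKO IP libraries. In bulk it had 0, 4, 1 and 1 counts in Ctrl and 0, 0, 1 and 0 in cKO mice at P24, and 1, 7, 0 and 0 in Ctrl and 1, 4, 6 and 4 in cKO mice at P17. Fgf3 (144838083 to 144844436, plus strand) did the same, with 303 to 1289 counts in the 6 Input libraries, 1 to 13 in the 6 IP libraries and 0 to 14 in the 16 bulk libraries. As summed counts scaled to library size, Input over IP in cKO mice was 115-fold for Fgf3 (95% counting interval 73.3 to 191), 2285-fold for Fgf4 (410 to 90293, on 1 IP count) and 592-fold for Fgf15 (253 to 1825). In Ctrl mice, given as a description with no interval, it was 77.1-fold for Fgf3. Against a floor of 3 counts per IP library, Ctrl Input stood at 152 times the floor for Fgf4, which had no IP count. For Fgf15, whose 4 IP counts lie under that floor, it stood at 189 times the floor. The floor is a set value, so these are not lower bounds of a fold change. The intervals cover counting error alone, on counts summed over 3 mice, and leave out the spread between mice. Of the 2371 Fgf4 counts in cKO Input, replicate 1 held 1363. Fgf4 and Fgf15 were chosen for this contrast in Ctrl mice, and all 3 genes passed the filter only through Input. The intervals are therefore a description and no test of the contrast.

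**Figure D3:**
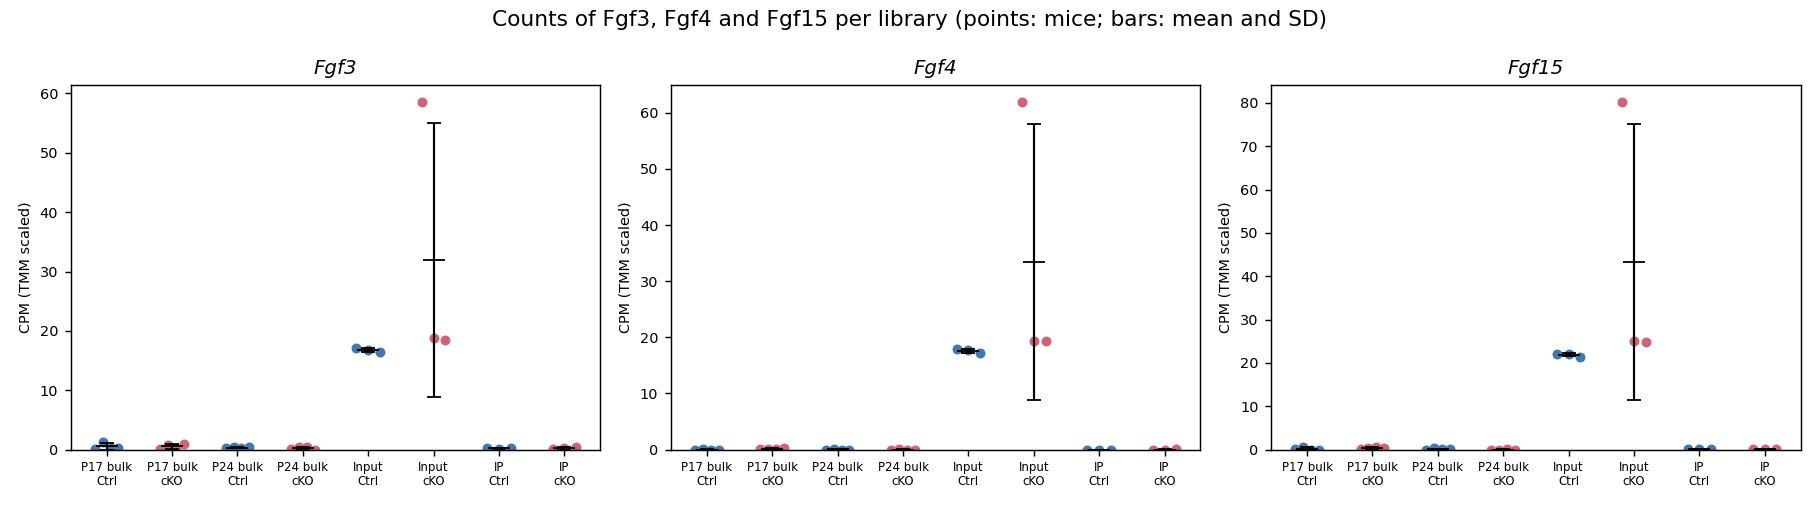
TMM-scaled CPM (y axis, from 0) of Fgf3, Fgf4 and Fgf15 in the 8 groups (x axis), with a point per mouse and bars for the mean and SD. The 6 Input libraries lie between 16.5 and 80.1 CPM with cKO replicate 1 on top, and the bulk and IP libraries lie at 1.30 CPM or less.

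Within Input, the genotype comparison of these 3 genes rested on 1 library. Ctrl libraries were close together, at 17.1 to 17.9 CPM for Fgf4 and 21.5 to 22.1 CPM for Fgf15, and cKO replicate 1 stood at 61.9 and 80.1 CPM while the other cKO libraries stood at 19.3 and 19.3 CPM for Fgf4 and 25.1 and 24.9 CPM for Fgf15. The log2 fold changes were 0.90 for Fgf3 (SE 0.41), 0.90 for Fgf4 (SE 0.41) and 0.96 for Fgf15 (SE 0.41), each with an adjusted p of 0.812. Without cKO replicate 1 they were 0.15, 0.13 and 0.19.

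The counts of these 3 genes followed those of a neighbour, Bc1 (ENSMUSG00000115783), an abundant neuronal RNA transcribed by RNA polymerase III that is carried into dendrites. Its sequence is shown because the counts of Fgf3, Fgf4 and Fgf15 in Input scale with it and because it holds an internal run of A. It is given from GRCm38.p6, chr7:144914470-144914637 on the plus strand, 5′ to 3′, and the capitals mark its longest run of A, 23 bases from position 77 to 99 of 168:
Bc1: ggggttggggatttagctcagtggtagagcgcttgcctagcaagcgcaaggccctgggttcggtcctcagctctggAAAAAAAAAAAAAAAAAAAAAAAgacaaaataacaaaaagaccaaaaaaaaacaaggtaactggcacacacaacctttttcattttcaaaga

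Bc1 starts 13.5 kb beyond the end of Fgf15, 49.2 kb beyond Fgf4 and 70.0 kb beyond Fgf3. It had 19993, 14079 and 15449 counts in Ctrl Input libraries and 71715, 21731 and 26117 in cKO Input libraries, so cKO replicate 1 was the highest for Bc1 as it was for Fgf3, Fgf4 and Fgf15. As a share of the Bc1 count, Fgf3 came to 1.80% to 2.15%, Fgf4 to 1.90% to 2.27% and Fgf15 to 2.46% to 2.82% over the 6 Input libraries, while the Bc1 count itself ran from 14079 to 71715. IP libraries had 89 to 315 Bc1 counts, and on 1 to 13 counts Fgf3 came to 1.12% to 7.78% of them, on 1 or 2 counts Fgf15 came to 0.635% to 2.25%, and Fgf4 had 1 count in 1 library. Bulk libraries had 2981 to 12546, and there Fgf3 was at most 0.201%, Fgf4 at most 0.0603% and Fgf15 at most 0.122% of the Bc1 count. The share seen in Input thus did not carry over to bulk cortex, which was made with another protocol, and in IP the counts were too few to give it closely. Bc1 in Input differed between genotypes by 1.06 on the log2 scale (SE 0.44, adjusted p = 0.812).

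**Figure D4:**
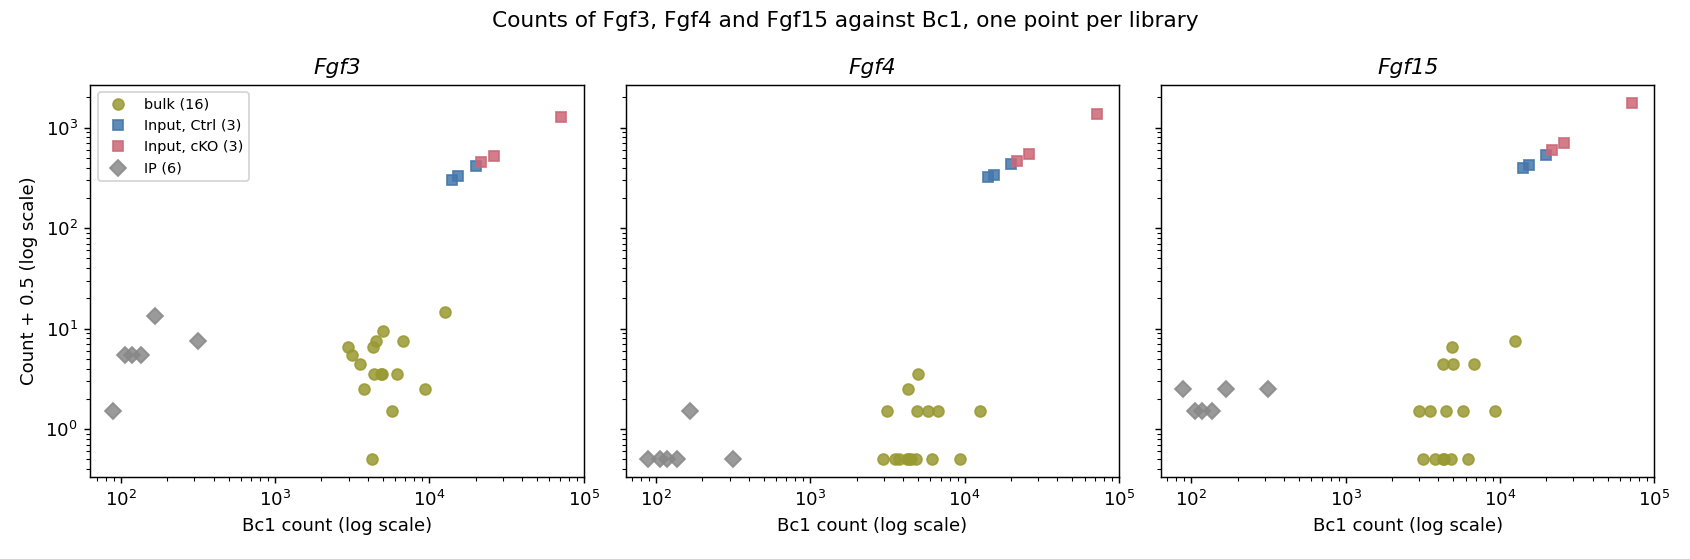
Counts of Fgf3, Fgf4 and Fgf15 plus 0.5 (y axis, log scale) against the Bc1 count (x axis, log scale), with a point per library, 16 bulk, 6 Input and 6 IP. The Input points lie on a rising line from 14079 to 71715 Bc1 counts, and the bulk points stay at 14 counts or fewer although Bc1 reaches 12546 there.

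Other genes of the interval shared the pattern by strand. On the plus strand, Gm44930, Gm10152, Gm44929 and Gm9711, which begin up to 172 kb before Bc1, had Input means of 20.1, 20.4, 20.6 and 24.7 CPM per gene in cKO and 6.86, 10.7, 10.8 and 13.6 CPM in Ctrl mice, against 31.9, 33.5 and 43.4 CPM in cKO and 16.8, 17.6 and 21.9 CPM in Ctrl mice for Fgf3, Fgf4 and Fgf15. Counts per gene thus rose towards Bc1. Per kb of annotated exon the order was not kept: Gm9711, whose exon is 327 bases long, had 75.6 CPM per kb in cKO Input, and Fgf3, Fgf4 and Fgf15 had 13.7, 10.5 and 14.2. On the minus strand of the same interval Gm34964, Gm26793, Gm39119 and Ano1 had at most 0.301 CPM in Input, and LTO1, the next gene after Bc1 on the plus strand, had 33.9 and 33.8 CPM in cKO and Ctrl Input. In bulk and IP the plus-strand genes before Bc1 had group means of at most 0.536 CPM, apart from Gm9711 (1.84 to 3.36 CPM).

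The genes most like Fgf4 over the 12 TRAP-Seq libraries, by Pearson's r of log2(CPM + 0.5), were Gm10152 (0.998), Gm44929 (0.998), Fgf3 (0.998), Gm13339 (0.997) and Gm10432 (0.997), and the same 5 came first for Fgf15. These values set 6 Input libraries with counts against 6 IP libraries without, and with a pseudocount of 0.1 only 1 of the 5 genes was kept. In the 16 bulk libraries neither gene passed the filter on low counts, so no such list was made. The longest run of bases that Bc1 shares with the span of Fgf4 is 25 bases, as the reverse complement of Bc1, against 13 for Fgf15 and 12 for Fgf3. Gm39119 shares 19 bases, also as the reverse complement, and had 0.0303 CPM in cKO Input. Gm10152 and Gm44929 share 10 bases each and had 20.4 and 20.6 CPM there. The part of shared bases in these counts was not tested.

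**Figure D5:**
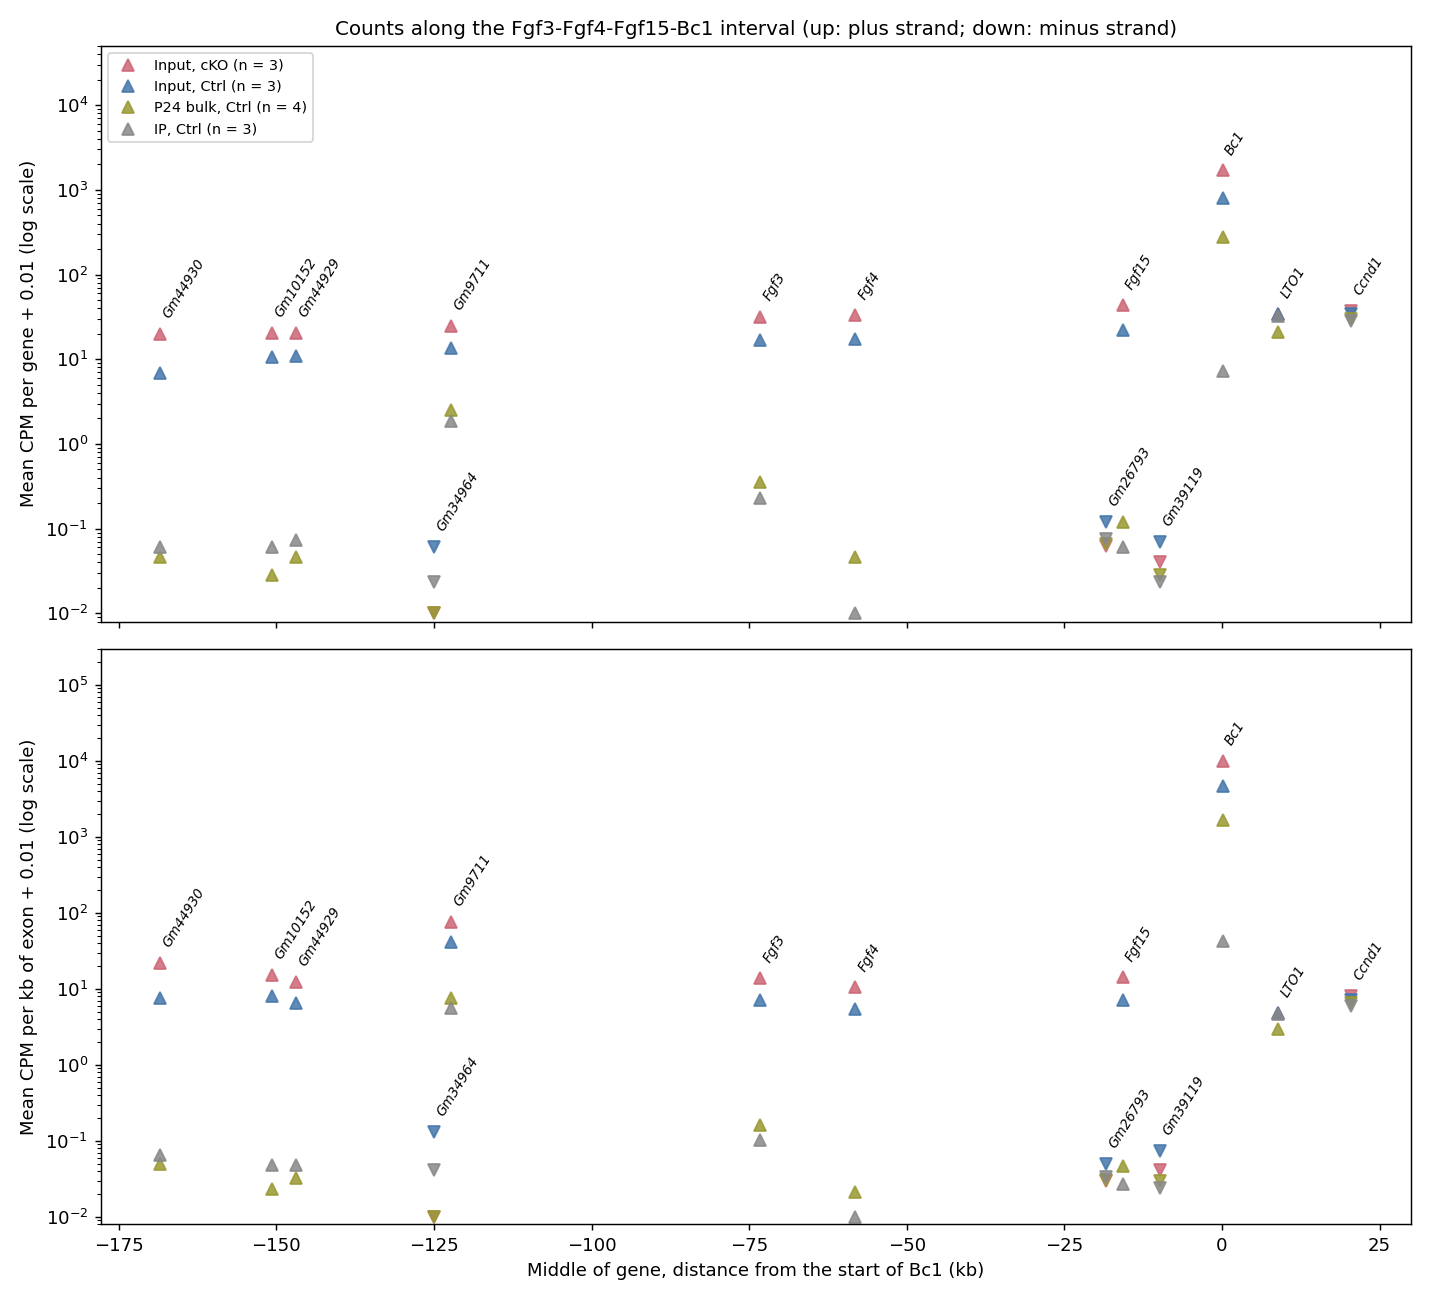
Mean CPM (y axis, log scale, plus 0.01) of the genes around Fgf3, Fgf4, Fgf15 and Bc1 against the distance of their middle from the start of Bc1 (x axis, kb), per gene above and per kb of exon below. Plus-strand genes (triangles up) before Bc1 have counts in Input of both genotypes and few in bulk and IP, and Gm34964, Gm26793 and Gm39119 on the minus strand (triangles down) stay at 0.109 CPM or less in Input. The colours stand for cKO Input, Ctrl Input, P24 Ctrl bulk and Ctrl IP.

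Most of the remaining genes of the pathway did not pass the test in any genotype comparison. Their counts in IP stand beside 20.0% of all genes called there. None of the other FGF ligands (8 of 15 tested in bulk at each age, 9 in IP, 10 in Input) changed with genotype. Of 12 other receptors and co-receptors tested in IP, 2 rose and 1 fell. Sdc2, a heparan sulphate proteoglycan, rose by 1.05 (SE 0.12, adjusted p = 0.000305) from 46.1 ± 6.39 to 93.7 ± 6.93 CPM, Gpc1 rose by 0.77 (adjusted p = 0.0124), and Sdc4 fell by 0.59 (adjusted p = 0.0150). Of 17 signalling adaptors and enzymes, 1 rose and 3 fell. Plcg1, the phospholipase C gamma that docks on the receptors, fell by 0.78 (adjusted p = 0.000879), Ptpn11, the phosphatase SHP2 that passes the signal on to RAS, fell by 0.62 (adjusted p = 0.00190), Sos2 fell by 0.36 (adjusted p = 0.0435, passing in 8 of 14 alternatives, up to 0.176) and Hras rose by 0.34 (adjusted p = 0.0374, passing in 7 of 14, up to 0.267). Gpc1 and Sdc4 each passed in 12 of 14 alternatives. Of 11 feedback inhibitors tested, Spry1 rose by 1.06 (adjusted p = 0.000785), from 6.40 ± 0.675 to 13.2 ± 1.47 CPM, and 0 fell. The median log2 fold change in IP ran from −0.24 for the feedback inhibitors to 0.06 for the other ligands, and it was −0.11 for the members and −0.01 over all genes tested.

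Of the 8 genes listed as transcription factors or targets of the FGF-ERK pathway, Ccnd1 rose and Etv5 and Egr1 fell in IP. Ccnd1, the cyclin that drives entry into the cell cycle, had 30.5, 26.5 and 28.0 CPM in Ctrl and 76.8, 78.5 and 84.5 CPM in cKO IP libraries, with a log2 fold change of 1.52 (SE 0.10, adjusted p = 1.12e-05). It rose in P24 bulk as well, from 28.9, 28.7, 37.2 and 26.0 to 41.3, 71.1, 65.5 and 69.6 CPM (1.04, SE 0.16, adjusted p = 0.00517), with no overlap in either set. At P17 it had 30.3 ± 1.61 and 34.2 ± 3.80 CPM, and in Input 33.8 ± 5.45 and 37.5 ± 7.11 CPM. In IP, Etv5 fell by 0.39 (adjusted p = 0.0387, passing in 8 of 14 alternatives, up to 0.160) and Egr1 fell by 0.40 (adjusted p = 0.0212, passing in 10 of 14, up to 0.236). Ccnd1 was the 1 gene of these lists that changed in P24 bulk, and none changed at P17 or in Input. Ccnd1 lies on the minus strand within 1000000 bases of Fgf4 and its end overlaps LTO1, which rose by 0.60 in P24 bulk (adjusted p = 0.0449, with adjusted p up to 0.150 and the threshold missed in 7 of 16 alternatives) and by 0.66 in IP (adjusted p = 0.00112), and reads in the overlap cannot be assigned to 1 of the pair. Among the other genes of that window with at least 1 CPM in a group, Ppfia1 fell by 0.53 in IP (adjusted p = 0.0158, passing in 10 of 14 alternatives), and Mrgprf, at 0.0783 CPM in Ctrl and 0.925 CPM in cKO IP libraries, was called higher (adjusted p = 0.00587) with its Ctrl mean under the floor. Shank2, Gm14372, Cttn, Faddos, Fadd, Ano1 and Tpcn2 did not pass in any genotype comparison in which they were tested.

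Between IP and Input of cKO mice, the counts of these lists stand beside 56.3% of all genes called, 27.8% higher and 28.5% lower. Of 10 other ligands tested, 1 was higher (Fgf7) and 4 were lower (Fgf5, Fgf16, Fgf20 and Fgf22). Of these, Fgf16 passed in 5 of 13 alternatives, Fgf5 in 9 of 14, Fgf22 in 10 of 14 and Fgf20 in 13 of 14. Among co-receptors 3 were higher, Sdc4 by 2.75, Sdc2 by 2.37 and Fgfrl1 by 2.08 on the log2 scale, and 5 were lower, Kl by −1.97 among them. Of the 17 adaptors and enzymes 1 was higher and 9 lower, with Frs3 and Ptpn11 both at −1.25. Of the feedback inhibitors 4 were higher and 3 lower, with Spred1 at 1.04 and Spred3 at −1.42. Of the listed transcription factors and targets, Etv4 (2.30) and Ccnd1 (1.07) were higher and Egr1 (−2.88) and Elk1 (−0.86) lower. All 4 sodium channel genes were lower, from −1.15 to −2.30, on the same side as Fgf13.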

How the data were processed

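Counts per gene were deposited by the authors as 3 tables of whole-number counts, for P24 bulk, P17 bulk and TRAP-Seq libraries, and the submitters' processing notes name STAR, edgeR and mm10. The counting tool, its annotation and its use of strand are not given in the sources used here. Gene names and positions came from GENCODE M21 (GRCm38), in which 53237 of 53342 identifiers matched and 105 did not. The 10 members, the gene lists and the tests were chosen with earlier results of these data known. Named genes were the members, genes within 1000000 bases of Fgf4 with at least 1 CPM in a group, and called genes of the pathway lists.

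Counts were scaled with TMM factors and tested with edgeR 4.0.16 (limma 3.58.1, R 4.3.3) by its quasi-likelihood test, within each comparison's own libraries, after a filter of 10 counts in 70% of the smallest group and 15 in all. Interactions were fitted over the 12 TRAP-Seq or 16 bulk libraries. Alternatives were the likelihood ratio test, DESeq2 1.42.0, RLE factors, library size alone, other filters, a replicate block, all libraries in one fit and each library left out. The scripts were tested on simulated counts. Deviations of same-numbered libraries correlated at 0.167 to 0.380 in P17 bulk, over 0.1 in every pair. The numbers were therefore read as pairing there and in no other genotype comparison. The main tests had no replicate block in any comparison, P17 bulk included, and the block was fitted as an alternative. For age by genotype the block also covered the P24 bulk libraries, whose same-numbered deviations correlated at 0.029 to 0.218. Each TRAP-Seq mouse gave both an IP and an Input library, but the main tests between fractions and of fraction by genotype left this pairing out. Results with the mouse as a block are given as an alternative. Libraries of a group differed by 2.79 to 89.8 in chi-square per degree of freedom over the 36 pairs, so none was counted as a duplicate. The highest values, 85.2 and 89.8, were those of cKO Input replicate 1 against replicates 2 and 3, which differed from each other by 8.99. Every other pair lay at 35.3 or less. Replicate 1 was kept in the main tests. Each library is 1 mouse. The gene targeted in cKO mice is not reported here.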

Additional observations from a re-analysis of the deposited data

Results flagged for a closer look

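In the bulk groups of 4 mice, 8 sets of values had 1 mouse standing apart by Dixon's ratio, the gap to the nearest mouse divided by the range of the group. For values with a normal spread, chance gives this in about 1 in 20 groups. Fgf2 in P24 cKO mice had a ratio of 0.896, from replicate 1 at 7.13 CPM. The other ratios came from genes at 14 counts or fewer, where 1 read can set the ratio, so the rate of 1 in 20 does not hold for them. Fgf3 had 0.852 and Fgf15 0.866 in P17 Ctrl mice, both from replicate 2. Fgf4 had 1 in P17 Ctrl, 0.995 in P17 cKO, 1 in P24 Ctrl and 1 in P24 cKO mice, and Fgf15 had 1 in P24 cKO mice.

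A genotype difference itself differed between sets of libraries in 1 gene of the pathway lists. For Ccnd1 the difference in IP minus that in Input was 1.37 on the log2 scale (adjusted p = 0.0467 by edgeR), passing in 7 of 19 alternatives, with adjusted p up to 0.208.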

How the results depend on the processing

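Fgf1 stayed lower in cKO mice and passed the test in 16 of 16 alternatives in P24 bulk (−0.58 to −0.45) and in 14 of 14 in IP (−0.87 to −0.63), and in 0 of 16 at P17. Fgfr3 in IP passed with the likelihood ratio test (adjusted p = 0.0492), DESeq2 (0.0184), library size alone (0.0280), no filter (0.00215), the replicate block (0.00139), and without IP Ctrl replicate 1 (0.0370) or IP cKO replicate 3 (0.0165). Fgfr1 in IP passed with library size alone (−0.45, adjusted p = 0.0479) and without IP cKO replicate 3. Fgf9 between fractions of cKO mice missed without IP cKO replicate 1 (adjusted p = 0.0573) or 2 (0.112) or Input cKO replicate 3 (0.0763). The causes were not tested. Library size alone moved the median of all genes in IP from −0.01 to −0.13.

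The number of genes called in P24 bulk, 388, was 619 with the likelihood ratio test, 604 with DESeq2, 618 with no filter, and 216 to 950 with a library left out (950 without cKO replicate 1). At P17, 20 became 61, 41 and 55, and 11 to 19 with a library left out. In IP, 4782 became 1684 with all libraries in one fit and 2633 to 4810 with a library left out. In Input, 26 became 137, 127 and 112, 15 with at least 10 counts in every library, 127 with all libraries in one fit, and 4 to 112 with a library left out (112 without cKO replicate 1). The fraction by genotype count, 15, became 219, 287 and 189, and 3 to 432 (432 without Input cKO replicate 1). The age by genotype count, 11, became 52, 54 and 62, and 4 to 149 (149 without P24 cKO replicate 1).

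With the replicate number as a block, calls went from 20 to 107 at P17 and from 11 to 56 for age by genotype. Where the numbers did not pair the libraries, the block gave 412 in P24 bulk, 6668 in IP and 7 in Input. With the mouse as a block, 6 genes were called for fraction by genotype, and 13122 in cKO and 17621 in Ctrl mice between fractions. The block changed no other call of a member than Fgfr3 in IP.

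Differences near 0 changed sign without passing the test. Fgfr1 at P17 was −0.0039 with no filter, Fgf13 in IP −0.013 with library size alone, and Fgf13 for fraction by genotype −0.043 with library size alone and −0.012 with no filter. With a library left out, Fgfr2 ran from −0.047 to 0.010 and Fgfr3 from −0.0034 to 0.049 in P24 bulk, Fgf9 from −0.087 to 0.036, Fgfr1 from −0.025 to 0.048 and Fgfr3 from −0.032 to 0.025 at P17, Fgfr2 from −0.13 to 0.0027 and Fgf2 from −0.24 to 0.011 in IP, and Fgf1 from −0.30 to 0.10 in Input. For fraction by genotype Fgf13 ran from −0.040 to 0.062 and Fgf9 from −0.0047 to 0.24, and for age by genotype Fgfr3 ran from −0.0046 to 0.065. Fgf3, at −0.61 (SE 0.999) for fraction by genotype and so not near 0, ran from −1.60 to 0.14. That range decides nothing, because Fgf3 had 1 to 13 counts per IP library and passed the filter only through Input. Fgf3 was left out of the count of interactions for that reason.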
